A study of Homo sapiens with 2 samples.

Results

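Sorting nexins (SNX) and vacuolar protein sorting (VPS) proteins move receptors and membrane between the endosomes, the lysosome, the Golgi and the cell surface. The members described here are all rows of the deposited expression table whose symbol is SNX or VPS followed by a number, with an optional letter after a VPS number: 67 of the table's 20323 genes, 30 named SNX and 37 named VPS. They were chosen by name and not by how they moved, though with earlier results of these data known. RNA came from MDA-MB-231 cells, a line from a triple-negative breast cancer, transfected with a small interfering RNA (siRNA) against HNRNPF (labelled HnRNPF Knockdown) or with a negative-control siRNA, and polyadenylated RNA was sequenced in 1 library per group. The series asks how HNRNPF, which encodes an RNA-binding protein of the heterogeneous nuclear ribonucleoprotein family, bears on gene expression. The dose of siRNA, the time after transfection and the number of siRNAs used are not given in the labels, and the library taken as HNRNPF siRNA carries the name si848 in the table.

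Sorting nexins share a phox-homology (PX) domain, through which many of them bind phosphatidylinositol 3-phosphate (PI3P), the lipid that marks early endosomes. Some also carry a BAR domain that bends membrane into tubules, and others an adaptor domain that picks up cargo. Retromer, built from VPS26, VPS29 and VPS35, retrieves receptors from endosomes, while the ESCRT complexes sort ubiquitinated receptors into vesicles inside the endosome and the HOPS and CORVET complexes tether endosomes before they fuse.

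As each group is a single library, differences cannot be set against a spread between replicates, and they carry no p-value. Values are estimated counts per gene, the authors' FPKM (fragments scaled by transcript length and sequencing depth, used wherever levels of different genes are compared), and the log2 ratio of the HNRNPF siRNA library over the control library after scaling to the effective library sizes. The 95% intervals are exact (Clopper-Pearson) and cover counting error only. Higher and lower refer to these 2 libraries. In bulk RNA, fewer cells that express a gene and less of its RNA per cell cannot be told apart. A gene was judged if it reached 20 counts in either library, which 12270 genes did.

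The HNRNPF siRNA library held 20134572 estimated counts and the control library 20654622. HNRNPF itself had 2451 counts in the HNRNPF siRNA library and 6373 in the control library, a log2 ratio of -1.37 (95% interval -1.44 to -1.30), or 38.8% of control. Markers of the line were abundant in both libraries, with 63656 counts for VIM in the HNRNPF siRNA library and 66622 in the control library, whereas ESR1 and CDH1 did not exceed 8 counts in either and PGR had 0 in both. Of 7 markers of other cell types, 2 reached the minimum, PECAM1 with 70 counts in the HNRNPF siRNA library and 97 in the control library, and COL1A1 with 118 and 109 in the same order.

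Among the 63 members judged, SNX3 alone differed by 1.5-fold or more. It was lower, so that 1 member, or 1.59%, was at least 1.5-fold lower, against 2.75% of all 12270 genes judged. No member was at least 1.5-fold higher, against 3.49% of all genes. At 2-fold, SNX3 was still the 1 member lower, against 0.619% of all genes, and no member was higher, against 0.937%. The members' median log2 ratio was -0.04, with 38 members below 0 and 25 above, and that of all genes was 0.00, with 6115 below and 6155 above. Without SNX3 the median was -0.04 as well, and the other 62 members lay between -0.57 for VPS37B and 0.38 for VPS33B. The counting interval lay below 0 for 21 members (33.3%, against 24.4% of all genes) and above 0 for 10 (15.9%, against 21.4%). Intervals narrow as counts rise, and the shares of members and of all genes were not matched for counts. VPS37B at -0.57 and VPS26C at -0.55 lay just short of the 1.5-fold line, which is 0.58 in size on the log2 scale.

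**Figure D1:**
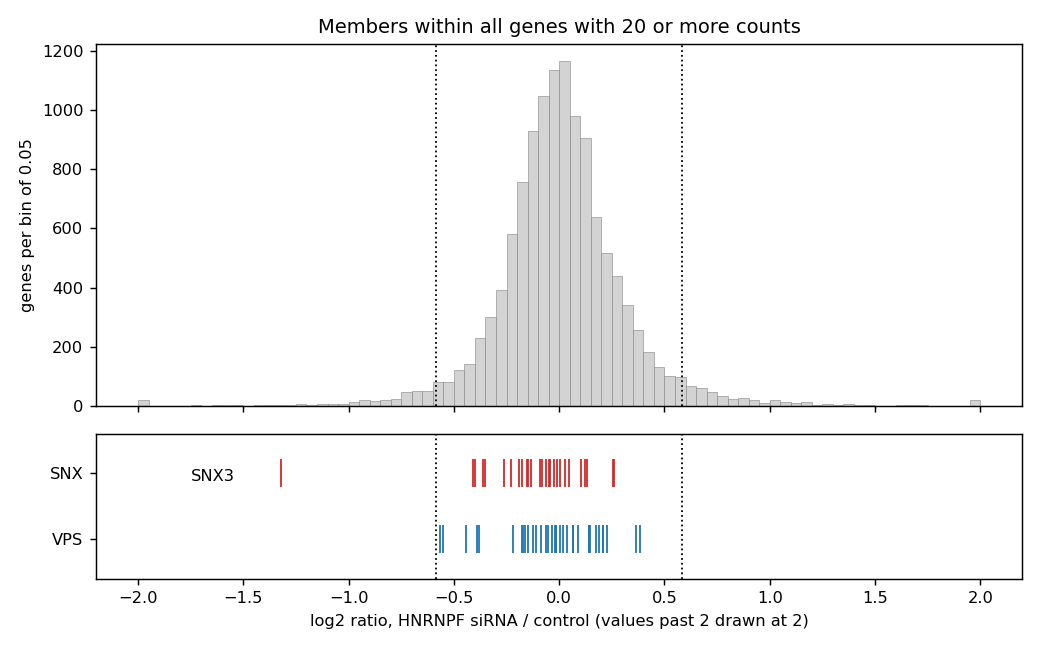
Log2 ratio of HNRNPF siRNA over control for all 12270 genes with 20 or more counts (grey histogram, values past 2 drawn at 2) and, below on the same axis, for 27 SNX and 36 VPS members (1 tick per gene). Dotted lines mark 1.5-fold; SNX3 at -1.32 is the only member beyond them.

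The remaining 4 members were not judged. SNX20, SNX31 and SNX32 had 0 counts in both libraries, which allows up to 0.148 CPM (counts scaled to sequencing depth) in the HNRNPF siRNA library and 0.147 in the control library (3 counts). SNX20 is known from leukocytes. The other is a row that shares the symbol VPS33A (ENSG00000256861), with 11 counts in the HNRNPF siRNA library and 0 in the control library. The 27 judged SNX members had a median log2 ratio of -0.08, with 19 below 0 and 8 above, and the 36 judged VPS members a median of -0.02, with 19 below and 17 above, though the VPS median was 0.02 by FPKM and 0.01 with total counts in place of the effective library sizes. Summed over the judged members, SNX transcripts came to 606 FPKM in the HNRNPF siRNA library and 744 in the control library, and VPS transcripts to 707 and 730 FPKM in the same order. Without SNX3, the other 26 SNX members summed to 560 FPKM in the HNRNPF siRNA library and 629 in the control library.

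**Figure D2:**
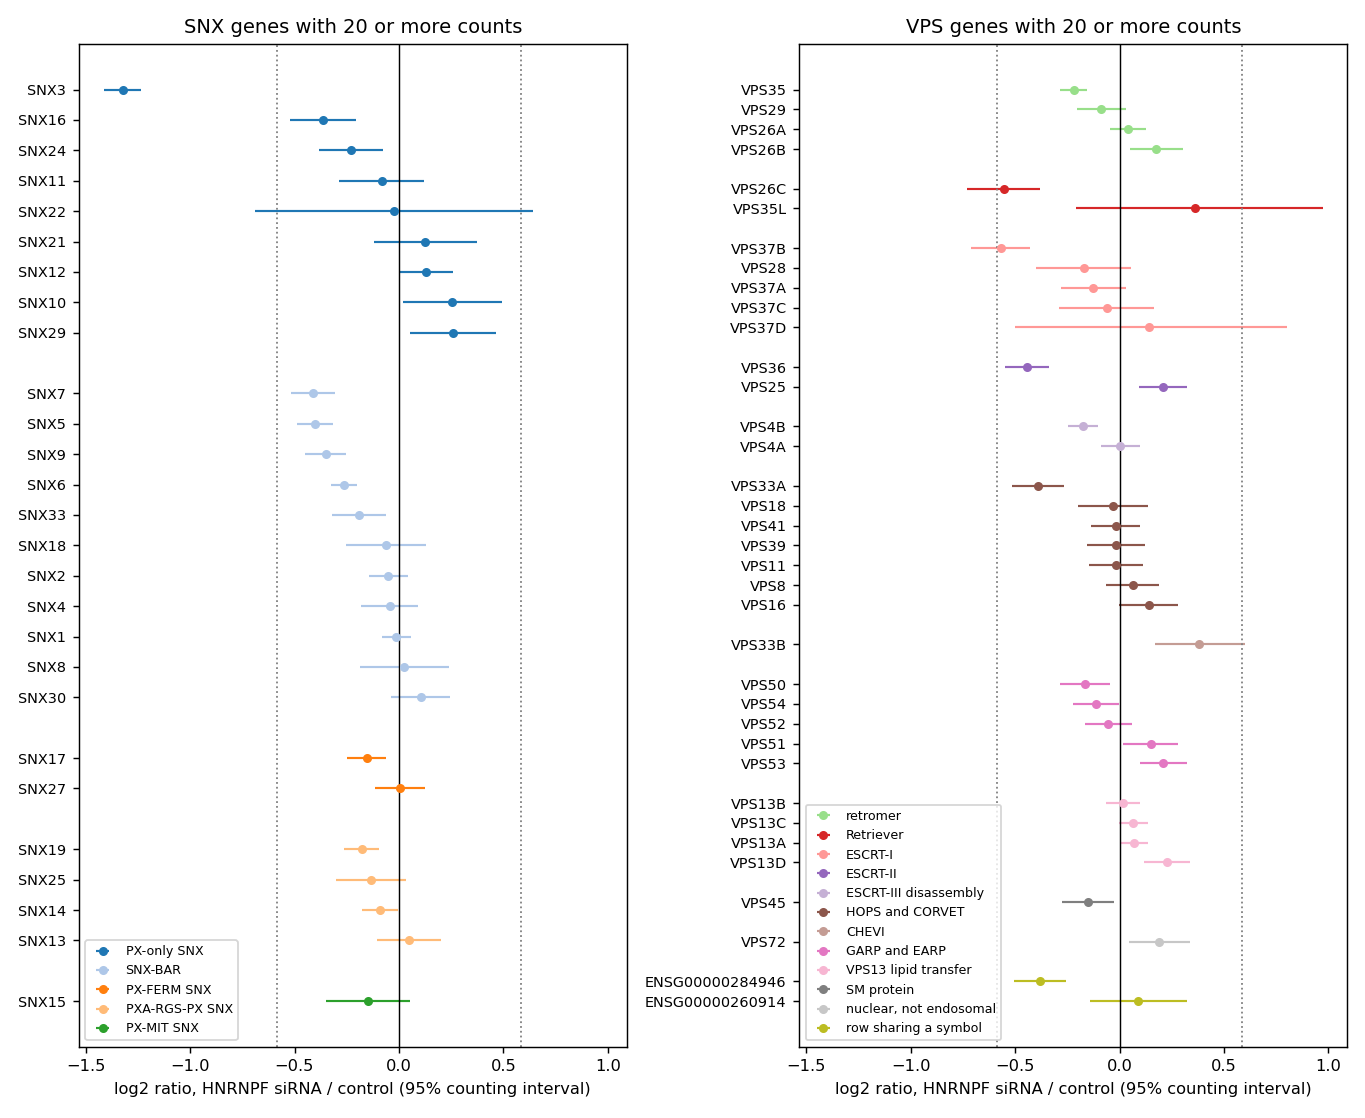
Log2 ratio of HNRNPF siRNA over control for each judged member (point) with its 95% counting interval (bar), SNX genes left and VPS genes right, coloured by role. The solid line marks 0 and the dotted lines 1.5-fold; most points lie within 0.3 of 0, and SNX3 stands alone at -1.32.

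SNX3 is a small sorting nexin with little beyond its PX domain, which recruits retromer to early endosomes and is known for the return of the Wnt carrier WLS and of the transferrin receptor. It is encoded on chromosome 6 (GRCh38, 108211222 to 108261260, minus strand). SNX3 had 1414 counts in the HNRNPF siRNA library and 3567 in the control library, a log2 ratio of -1.32 (95% interval -1.41 to -1.23), 2.50-fold lower. The interval lies wholly beyond the 2-fold line. In FPKM it stood at 46.4 in the HNRNPF siRNA library and 115 in the control library, which placed it seventh among the 63 judged members in the HNRNPF siRNA library and first in the control library. Over all genes judged, SNX3 had the 40th lowest log2 ratio. Its counts were whole numbers, and no other gene of the table overlaps it in the annotation.

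SNX12, the sorting nexin closest to SNX3 in sequence and in domain makeup, was near its control level. It had 1030 counts in the HNRNPF siRNA library and 948 in the control library, a log2 ratio of 0.13 by counts (95% interval 0.00 to 0.26) and -0.02 by FPKM, with 33.8 FPKM and 34.2 FPKM in the same order. Together SNX3 and SNX12 came to 80.2 FPKM in the HNRNPF siRNA library and 149 in the control library. SNX3 made up 57.9% of that sum in the HNRNPF siRNA library and 77.1% in the control library. Both genes lay on the same level scale as retromer: VPS35, for which SNX3 is an adaptor, had 41.3 FPKM in the HNRNPF siRNA library and 47.4 in the control library.

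The heptamer GGAAGAA came up in an earlier look at these same libraries, among transcripts that were lower after HNRNPF siRNA. It was searched for on the sense strand in each member's 3′ untranslated region (UTR), taking the longest that GENCODE release 29 annotates for a protein-coding transcript. As it was picked on these libraries, what follows is a description. Of the 61 judged members with an annotated 3′ UTR, 15 held the heptamer, or 24.6%, against 22.7% of the 12082 judged genes with one. SNX3 was not among them: its 3′ UTR of 927 bases held the shorter GAAGAA once, 54 bases in, and GGAAGA once. GAAGAA was present in 54.1% of the members' 3′ UTRs and in 47.7% of those of all judged genes. The site of SNX3 and those of the 4 lowest members that held the heptamer are printed below 5′ to 3′ as DNA, with GAAGAA (SNX3) or GGAAGAA in capitals, to set them beside the sites of VPS41, which held 3 copies and had a log2 ratio of -0.02 by counts and -0.29 by FPKM.
SNX3 (chr6:108212079-108212106, minus strand, GRCh38): taagcaccagtGAAGAAgttctaacttt
VPS37B (chr12:122866815-122866843, minus strand, GRCh38): actcatgtttgGGAAGAAataggcctctc
VPS26C (chr21:37223528-37223556, minus strand, GRCh38): gaaattttaaaGGAAGAAaccatttttaa
VPS36 (chr13:52413942-52413970, minus strand, GRCh38): taacttaagaaGGAAGAAaagtgatatat
VPS33A (chr12:122231238-122231266, minus strand, GRCh38): gcttttgacatGGAAGAAtgtgataattg
VPS41 (chr7:38725476-38725504, minus strand, GRCh38): cacccttgtaaGGAAGAAaagagagttca
VPS41 (chr7:38725002-38725030, minus strand, GRCh38): cagcgtcgccaGGAAGAAgatctgataaa
VPS41 (chr7:38723776-38723804, minus strand, GRCh38): cctcgttttggGGAAGAAcatagttgcaa

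The 15 members that held GGAAGAA had a median log2 ratio of -0.06, with 11 below 0 and 4 above, and the 46 that did not a median of -0.02, with 26 below and 20 above. Over all judged genes the same medians were -0.07 and 0.01. By the authors' FPKM the members' order turned round, with a median of -0.03 for those with the heptamer and -0.04 for those without. The gap by counts was found among VPS members and not among SNX members: 8 VPS members with the heptamer had a median of -0.26 and 26 without it one of 0.03, whereas 7 SNX members with it had a median of -0.02 and 20 without it one of -0.11. The 3′ UTRs were longer in members with the heptamer, at a median of 3038 bases against 1528 bases in those without. Of all 324 judged genes with a 3′ UTR that were at least 1.5-fold lower, 52.5% held the heptamer, against 22.7% of all judged genes with one. As the heptamer was picked among lower transcripts of these libraries, a high share there restates that choice. SNX3, the 1 member among those 324 genes, did not hold it. Apart from the 4 lowest, the carriers among the members ranged from -0.19 for SNX33 to 0.26 for SNX29. SNX19 held 3 copies at a log2 ratio of -0.18 and SNX13 held 3 at 0.05. SNX7, among the lowest members, held no copy in its 3′ UTR but 3 in its coding sequence, where 47.5% of the members and 35.1% of all judged genes had at least 1. VPS41 also held 3 in its coding sequence, at a log2 ratio of -0.02. The only members with more there were VPS13A with 4, at 0.07, and VPS13C and VPS13D with 5 each, at 0.07 and 0.23 by counts.

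**Figure D3:**
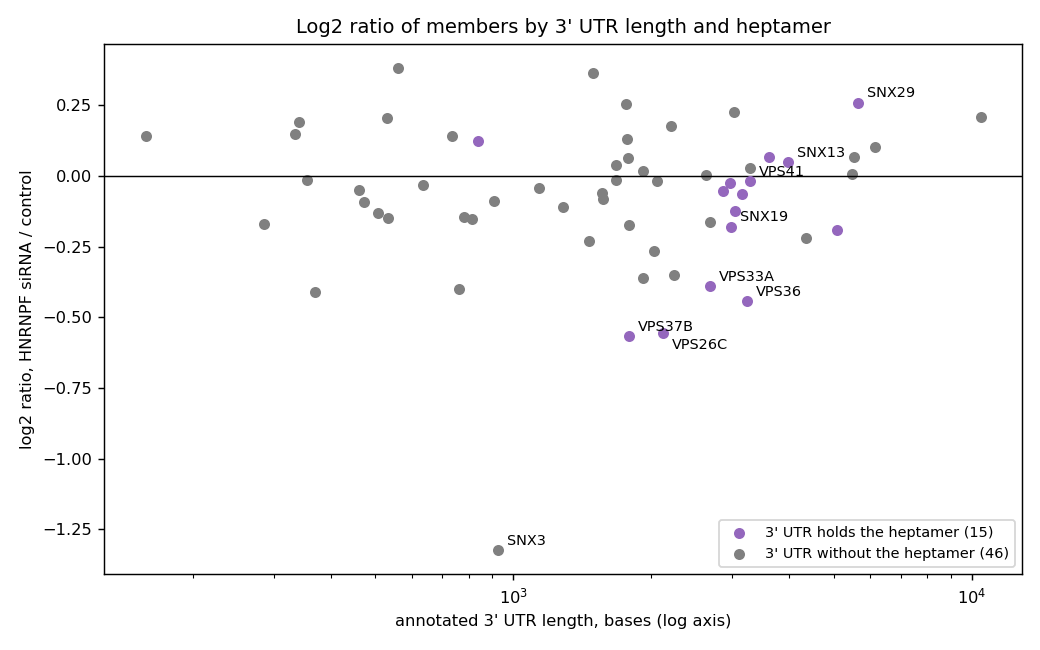
Log2 ratio of HNRNPF siRNA over control for 61 judged members (y axis) against the length of the annotated 3′ UTR in bases (x axis, log scale), with the 15 members whose 3′ UTR holds the heptamer in purple and the other 46 in grey. VPS37B, VPS26C, VPS36 and VPS33A are the lowest purple points, SNX3 at -1.32 is grey, and purple points also lie above 0.

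Beyond SNX3, the sorting nexins grouped with it spread to both sides of 0. The group is labelled PX-only, a loose name, since some members such as SNX16 carry more than the PX domain. Of 9 judged, 5 were below 0 and 4 above, with a median of -0.02. SNX16, an endosomal protein with a coiled coil beside its PX domain, had 584 counts in the HNRNPF siRNA library and 757 in the control library (log2 ratio -0.36, 95% interval -0.52 to -0.21). SNX24 had 641 counts in the HNRNPF siRNA library and 757 in the control library (log2 ratio -0.23, 95% interval -0.38 to -0.08), and was at -0.44 by FPKM. The highest were SNX29 at 0.26 (95% interval 0.06 to 0.47), with 428 counts in the HNRNPF siRNA library and 360 in the control library, and SNX10, needed for bone resorption by osteoclasts, at 0.25 (95% interval 0.02 to 0.49). SNX11, SNX21 and SNX22 had intervals that span 0, and SNX22 did not exceed 41 counts.

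The BAR-domain sorting nexins differed by partner. SNX1 and SNX2 pair with SNX5 and SNX6 in the complex called ESCPE-1, which forms tubules that return receptors such as IGF2R to the Golgi. SNX5 had 1980 counts in the HNRNPF siRNA library and 2635 in the control library, a log2 ratio of -0.40 (95% interval -0.49 to -0.32). SNX6 had 3939 counts in the HNRNPF siRNA library and 4766 in the control library, a log2 ratio of -0.26 (95% interval -0.33 to -0.20). SNX1 and SNX2 differed less, with log2 ratios of -0.01 (95% interval -0.08 to 0.06) and -0.05 (95% interval -0.14 to 0.04). Summed, SNX5 and SNX6 came to 136 FPKM in the HNRNPF siRNA library and 166 in the control library, and SNX1 and SNX2 to 100.4 and 107 FPKM in the same order. SNX6 was the most abundant member in the HNRNPF siRNA library, at 78.6 FPKM, and followed SNX3 in the control library, at 94.5 FPKM. SNX5 overlaps MGME1 (log2 ratio -0.26) on the opposite strand, and the sources used here do not say whether reads were counted by strand.

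SNX4 acts in recycling to the plasma membrane and in autophagy together with SNX7 or SNX30, and these alternative partners differed from each other. SNX7 had 1291 counts in the HNRNPF siRNA library and 1731 in the control library (log2 ratio -0.41, 95% interval -0.52 to -0.31), the lowest of the 11 judged BAR-domain members. SNX30 was at 0.10 (95% interval -0.04 to 0.24) and SNX4 at -0.04 (95% interval -0.18 to 0.09). SNX9, which binds dynamin at clathrin-coated pits, had 1530 counts in the HNRNPF siRNA library and 1966 in the control library (log2 ratio -0.35, 95% interval -0.45 to -0.25), while its relatives SNX33 and SNX18 were at -0.19 (95% interval -0.32 to -0.06) and -0.06 (95% interval -0.25 to 0.13). In all, 9 BAR-domain members lay below 0 and 2 above, with a median of -0.06, and the counting interval lay below 0 for 5 of the 11 (against 24.4% of all genes) and above 0 for none (against 21.4%). Here too the shares were not matched for counts.

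Cargo adaptors and scaffold-type sorting nexins lay close to control. SNX17, which recycles integrins and LRP1 through the Retriever complex, had 1782 counts in the HNRNPF siRNA library and 1997 in the control library (log2 ratio -0.15, 95% interval -0.25 to -0.06). SNX27, the PDZ-domain adaptor that links cargo to retromer, was level at 0.01 by counts (95% interval -0.11 to 0.13) but at -0.14 by FPKM. Among the 4 related members SNX13, SNX14, SNX19 and SNX25, SNX19 was lowest at -0.18 (95% interval -0.26 to -0.09). SNX19 sits at contacts between endosomes or lysosomes and the endoplasmic reticulum. SNX14, SNX25 and SNX13 lay between -0.13 and 0.05. SNX15 was at -0.15 (95% interval -0.35 to 0.05).

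Retromer subunits did not follow SNX3. VPS35, the scaffold of the complex, had 3601 counts in the HNRNPF siRNA library and 4223 in the control library, a log2 ratio of -0.22 (95% interval -0.28 to -0.15). VPS26A had 2211 counts in the HNRNPF siRNA library and 2169 in the control library (log2 ratio 0.04, 95% interval -0.05 to 0.12), and VPS29 had 1147 and 1229 counts in the same order (log2 ratio -0.09, 95% interval -0.21 to 0.03). The median of these 3 subunits was -0.09 by counts and 0.02 by FPKM. VPS26B, the alternative form of VPS26, had 1098 counts in the HNRNPF siRNA library and 979 in the control library (log2 ratio 0.18, 95% interval 0.05 to 0.30), but its counts are not whole. VPS26A made up 72.8% of the FPKM of both VPS26 genes in the HNRNPF siRNA library and 74.2% in the control library. Summed over the 4 genes, retromer transcripts came to 160.4 FPKM in the HNRNPF siRNA library and 161 in the control library.

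**Figure D4:**
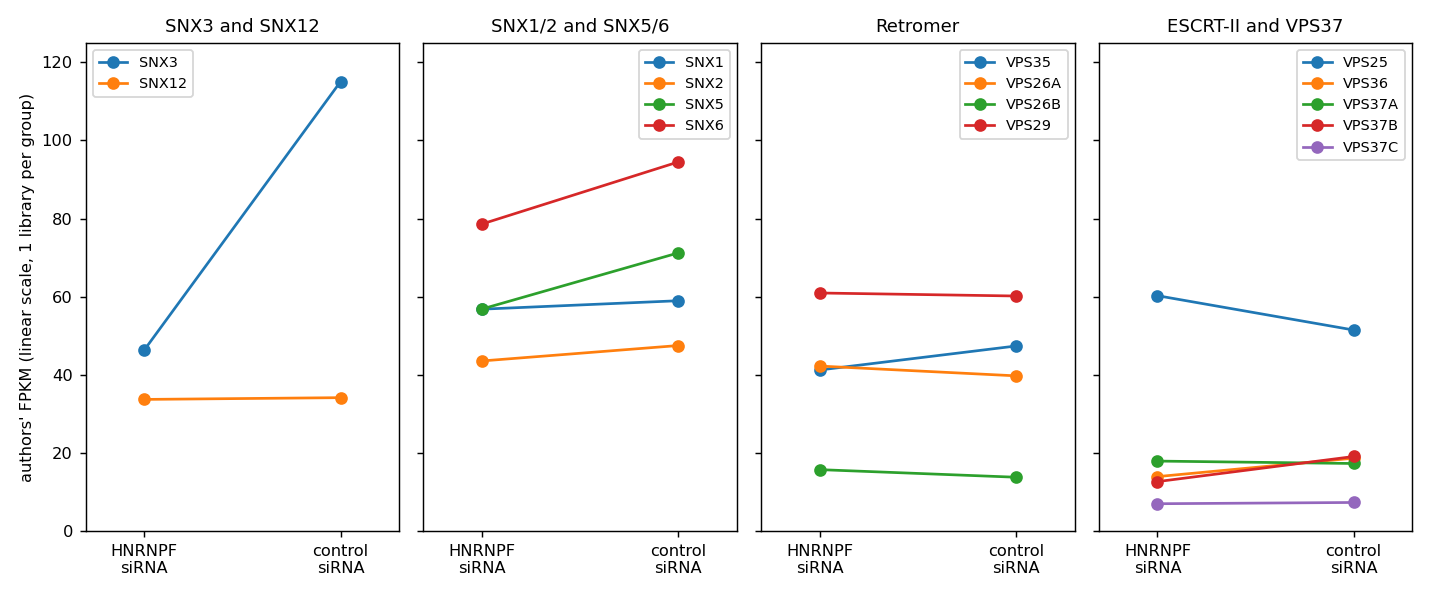
The authors' FPKM (linear axis from 0) of selected members in the HNRNPF siRNA library (left of each panel) and the control library (right), 1 point per library. SNX3 stands at 46.4 in the HNRNPF siRNA library and 115 in the control library, while SNX12 and the retromer subunits run nearly level.

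VPS26C, the VPS26 form used by Retriever, was lower than the retromer forms. It had 457 counts in the HNRNPF siRNA library and 677 in the control library, a log2 ratio of -0.55 (95% interval -0.73 to -0.38), next to VPS26A at 0.04 and VPS26B at 0.18. VPS35L, the scaffold of the same complex, was scarce in this table, at 0.80 FPKM in the HNRNPF siRNA library and 0.65 in the control library, with 58 and 45 counts in that order (log2 ratio 0.36, 95% interval -0.21 to 0.97). VPS35L overlaps KNOP1 on the opposite strand and its counts are not whole, so its level is uncertain.

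Of the 9 ESCRT members 6 were below 0 and 3 above, with a median log2 ratio of -0.12 by counts and -0.06 by FPKM; of all judged genes 6115 were below 0 and 6155 above. Without the members whose 3′ UTR held the heptamer the ESCRT median was -0.03. Those left out include VPS37B and VPS36, the lowest of the group, and the heptamer was picked among lower transcripts of these libraries. The shift is therefore a description, and its cause was not tested. VPS37B, a subunit of ESCRT-I, which binds ubiquitinated cargo, was the lowest VPS gene, with 694 counts in the HNRNPF siRNA library and 1037 in the control library (log2 ratio -0.57, 95% interval -0.71 to -0.43). Its relatives differed less: VPS37A was at -0.12 (95% interval -0.28 to 0.03) by counts and 0.05 by FPKM, VPS37C at -0.06 (95% interval -0.29 to 0.17) and VPS37D, with at most 44 counts, at 0.14 (95% interval -0.50 to 0.80). VPS37B made up 32.5% of the FPKM of the 4 VPS37 genes in the HNRNPF siRNA library and 42.5% in the control library.

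Within ESCRT-II, which bridges ESCRT-I and ESCRT-III, the 2 subunits with a VPS name pointed opposite ways. VPS36, which binds PI3P and ubiquitin, had 1249 counts in the HNRNPF siRNA library and 1712 in the control library (log2 ratio -0.44, 95% interval -0.55 to -0.34), and overlaps the less abundant THSD1 on the same strand. VPS25 had 1315 counts in the HNRNPF siRNA library and 1148 in the control library (log2 ratio 0.21, 95% interval 0.09 to 0.32). In FPKM, VPS25 stood at 60.3 in the HNRNPF siRNA library and 51.5 in the control library, and VPS36 at 14.0 and 18.7 in that order. SNF8, the ESCRT-II subunit without a VPS name, was more abundant and near level. It had 112.5 FPKM in the HNRNPF siRNA library and 112.6 in the control library (log2 ratio -0.09 by counts, 95% interval -0.17 to -0.0006). The ATPases that take ESCRT-III apart were close to control, VPS4B at -0.17 (95% interval -0.25 to -0.10) and VPS4A at 0.00 (95% interval -0.09 to 0.10), and VPS28 was at -0.17 (95% interval -0.40 to 0.06).

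The HOPS and CORVET tethers were near level apart from VPS33A. Their 7 judged genes had a median of -0.02 by counts, 0.04 by FPKM and 0.01 with total counts. By counts 6 of them, VPS8, VPS11, VPS16, VPS18, VPS39 and VPS41, lay between -0.03 and 0.14 with intervals that include 0. By FPKM these 6 lay between -0.29 for VPS41 and 0.21 for VPS8. VPS33A, the subunit that grips SNARE proteins for fusion, had 920 counts in the HNRNPF siRNA library and 1215 in the control library, a log2 ratio of -0.39 (95% interval -0.52 to -0.27). With the row that shares its symbol added, the log2 ratio was -0.37.

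VPS33B, which works with VIPAS39 in another tether, was the highest judged member, yet its direction differed once a second row under its symbol was added. Its own row had 413 counts in the HNRNPF siRNA library and 319 in the control library (log2 ratio 0.38, 95% interval 0.17 to 0.60). A second row under the same symbol (ENSG00000284946, on the same strand, overlapping VPS33B and PRC1) had 958 counts in the HNRNPF siRNA library and 1257 in the control library (log2 ratio -0.38, 95% interval -0.50 to -0.26). PRC1 itself had 6155 counts in the HNRNPF siRNA library and 7575 in the control library (log2 ratio -0.29). How much of the second row came from VPS33B was not tested. Both rows together had a log2 ratio of -0.19 (95% interval -0.30 to -0.08) by counts and of 0.01 by FPKM. For VPS4A the second row (ENSG00000260914) was at 0.09, and the sum of both at 0.02.

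The remaining VPS genes were within 0.23 of 0. In the GARP and EARP complexes, which tether vesicles at the Golgi and at recycling endosomes, VPS53 was highest at 0.21 (95% interval 0.10 to 0.32) and VPS50, the subunit particular to EARP by its known makeup, lowest at -0.16 (95% interval -0.28 to -0.05). VPS51 was the most abundant of these in both libraries, at 25.1 FPKM in the HNRNPF siRNA library and 27.1 in the control library. All 4 VPS13 genes, which encode bridge-like lipid transfer proteins, were above 0 by counts, but VPS13A was at -0.14 by FPKM, and of the 4 only VPS13D had a counting interval clear of 0, with 1410 counts in the HNRNPF siRNA library and 1214 in the control library (log2 ratio 0.23, 95% interval 0.12 to 0.34). VPS45, which controls SNARE assembly on endosomes, was at -0.15 (95% interval -0.27 to -0.03). VPS72 carries a VPS name but encodes a nuclear histone chaperone; it was at 0.19 (95% interval 0.05 to 0.34).

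Other genes of the same pathways, taken from lists by complex and role, were all within 1.5-fold of control. Of the 6 genes of the WASH complex, which builds actin on endosomes, 2 were below 0 and 4 above (median 0.07), with WASHC3 at 0.34 and WASHC4 at -0.27. Of the 12 genes of the CCC complex, which works with Retriever, 7 were below 0 and 5 above (median -0.04), with COMMD10 at -0.46 and COMMD5 at -0.41. For 5 of these 12 the counting interval lay below 0 (against 24.4% of all genes) and for 1 above 0 (against 21.4%). Of 22 further ESCRT genes 16 were below 0 and 6 above (median -0.07), with MVB12B, a subunit of ESCRT-I, highest at 0.51 and CHMP4A lowest at -0.35. The counting interval lay below 0 for 11 of these 22 (against 24.4% of all genes) and above 0 for 2 (against 21.4%). The shares given for these lists were not matched for counts, and intervals narrow as counts rise. In the list of PI3P synthesis and endosome maturation, 6 of 15 genes were below 0 and 9 above (median 0.02), led by MTM1 at 0.24 and BECN1 at 0.20, and of the tether partners VIPAS39 was at -0.23 and ANKRD27 at -0.19. None of the genes on these lists differed by 1.5-fold, against 2.75% of all genes judged that were lower by that much and 3.49% that were higher.

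Transcripts of known retromer and sorting nexin cargo were likewise within 1.5-fold. The list of 12 had a median of -0.03, with 8 below 0 and 4 above, and SORT1, a sorting receptor, was the lowest at -0.26 (95% interval -0.31 to -0.20). Among cargo of SNX3 itself, WLS had 1623 counts in the HNRNPF siRNA library and 1637 in the control library (log2 ratio 0.00), and TFRC, the transferrin receptor, had 10574 and 11176 counts in the same order (log2 ratio -0.07). These are transcript levels and say nothing of where the proteins were in the cell.

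Base composition moved with the ratios. The 25 judged members whose longest transcript had under 45% GC had a median log2 ratio of -0.11, with 18 below 0 and 7 above, and the 38 others had a median of -0.01, with 20 below and 18 above. Over all judged genes the same medians were -0.07 and 0.04. Across the 63 members Spearman's rho of the log2 ratio with GC content was 0.23, and across all judged genes 0.26; genes share their library and are not independent replicates. With a trend on GC content and length removed over all genes, SNX3 was at -1.31, and the medians were -0.05 over the judged SNX members and -0.02 over the judged VPS members.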

How the data were processed

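Per the labels' protocols, oligo(dT)-selected RNA was fragmented and made into Illumina libraries. RSEM, HISAT2, StringTie 1.3.1, fastp 0.18.0 and the build GRCh38 are listed, with no role or order, per the submitters' processing notes, and no source used here names an annotation release. Per the file headers, the authors deposited each library's estimated counts per gene, which are unscaled and not whole in 12.0% of genes in the HNRNPF siRNA library and 11.6% in the control library. The authors also deposited FPKM per gene and a log2 fold change, which matched their FPKM on the log2 scale to within 3.1e-09 once 0 was replaced by 0.001. The 2 columns of means, and the p and FDR columns, were not used. The column si848 was taken as HNRNPF siRNA because the table's name sets siNC against siHnRNPF.

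Counts were rounded and scaled by TMM (edgeR 4.0.16, R 4.3.3). The log2 ratio used a prior count of 2, and intervals were Clopper-Pearson bounds of the HNRNPF siRNA share of each gene's counts, rescaled (scipy 1.17.1). PCR reads without molecular identifiers are not independent molecules, so intervals and floors cover counting error only. The count tests of edgeR and DESeq2 were not run, since 1 library per group leaves no residual degrees of freedom. The ratio and interval were run on simulated counts with known folds at these depths. Those counts held counting error only, so the check says nothing of spread between replicates or of PCR. Alternatives were DESeq2 size factors, total counts, other minimums and a prior count of 0.5, the authors' FPKM, a GC and length trend removed, and members left out. Symbols came from the table; where rows shared one, a reference table of gene names decided which kept it. Coordinates and transcripts came from GENCODE 29 (GRCh38), which held 20171 of the identifiers and all 67 members. Of the judged members, 13 had counts that are not whole and 17 overlapped a judged gene on the opposite strand.

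The members, role lists and alternatives were chosen with earlier results of these data known. Named genes were HNRNPF, members past 1.5-fold, retromer, SNX12, the largest difference and highest FPKM of each role, and members with GGAAGAA; other members named to complete a role, and the shorter motifs, were added after their values were seen. No protein sequence table was used here.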

Additional observations from a re-analysis of the deposited data

How the results depend on the processing

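Across 9 alternatives SNX3 stayed between -1.33 and -1.30 on the log2 scale. The count of members at least 1.5-fold lower was 2 with the authors' FPKM with 0.1 added and 2 after a trend on GC content and length was taken off, VPS37B joining SNX3 in both (-0.585 and -0.63), and with no count minimum 1 member, the row sharing the VPS33A symbol, was at least 1.5-fold higher. These 3 counts differed from the reported ones by more than 1.5 times; the other 110 recomputed counts, group medians and HNRNPF ratios stayed within 1.5 times for a count and within the median of the members' counting intervals, or HNRNPF's own, for a ratio. Members with an interval below 0 numbered 18 and those above 0 numbered 13 with total counts, against 21 and 10 as reported. Of the recomputed values of named genes 290 stayed within their counting interval, and 9 values, of 8 genes, lay on the other side of 0. With the authors' FPKM, SNX12 was at -0.019 and VPS51 at -0.11, below 0 though their counting intervals lay above it, VPS29 was at 0.02, and SNX21 (0.45), VPS13A (-0.14), VPS33A (-0.57), VPS37A (0.05) and VPS41 (-0.29) left their intervals; with that trend taken off SNX6 (-0.19) and VPS4B (-0.09) did, and SNX21 (-0.03) and VPS41 (0.05) crossed 0. With total counts VPS41 (0.01) and SNX22 (0.00) crossed 0. The medians of retromer (0.02), of VPS members (0.02) and of HOPS and CORVET (0.04) lay above 0 with the authors' FPKM, as did those of VPS members (0.01), of HOPS and CORVET (0.01) and of members without the heptamer (0.00) with total counts and that of VPS members without heptamer carriers (0.03), so their sign is not firm. The cause was not tested. Counting intervals could not be given with FPKM. No paired analysis was possible because each group has 1 library, and no replicate could be left out. Members under 100 counts (SNX22, VPS37D and VPS35L) have intervals that reach past 1.5-fold on at least 1 side.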

Other observations

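For a few members the counts and the authors' FPKM gave different ratios. SNX8 had 368 counts in the HNRNPF siRNA library and 364 in the control library, but 5.82 FPKM and 4.02 FPKM in that order, so that the log2 ratio was 0.03 by counts and 0.53 by FPKM. SNX21 was at 0.12 by counts and 0.46 by FPKM, VPS41 at -0.02 by counts and -0.29 by FPKM, and VPS51 at 0.15 by counts and -0.11 by FPKM. These 4 of 63 judged members had a gap of at least 0.25, after the median gap over all genes was taken off, or 6.35%, against 6.73% of 12257 judged genes with FPKM above 0 in both libraries. The deposited table gives no transcript-level values with which to look further. They were picked after their values were seen.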
